A study of Mus musculus with 2 samples.

Results

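In all, 9 genes that mark or make up the blood-forming niche of marrow stroma were followed in cultured bone marrow stromal cells: Cxcl12, Kitl, Il7, Vcam1, Lepr, Ebf1, Ebf3, Foxc1 and Hp. They were taken by symbol from the feature lists of the count matrices, where all 9 were found among 32285 gene identifiers, and the rule itself uses no measured value. The study set a conditional knockout (cKO) library, from Prrx1-Cre+/-; Slc31a1flox/flox mice, against a wild-type (WT) library from Slc31a1flox/flox littermates without Cre, to ask what the loss of the copper importer SLC31A1 does to stromal and osteogenic cells. Both genotypes carried the floxed alleles on a C57BL/6J background, and Prrx1-Cre is active in limb mesenchyme, so blood and endothelial cells lie outside its main field. Marrow of femurs and tibias was plated in alpha-MEM with 10% serum, unattached cells were removed after 48 h, and no osteogenic medium was given. Each genotype is 1 single-cell library made with a 10x Genomics 3' kit, both carry the same batch label, and the sources used here give no age, sex or number of mice for a library.

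Marrow stromal cells that lie along sinusoids, called CXCL12-abundant reticular or leptin receptor positive cells, hold blood stem cells and lymphoid progenitors close to them with secreted and membrane-bound factors. CXCL12 retains cells that carry the receptor CXCR4, KIT ligand (stem cell factor) sustains cells that carry KIT, interleukin 7 feeds lymphoid progenitors, and VCAM1 anchors cells that carry the integrin alpha4 beta1. The transcription factors EBF1, EBF3 and FOXC1 keep these stromal cells in their state, and in mice Ebf3 and Foxc1 also hold them back from turning into bone or fat. Endothelial cells make part of the CXCL12 and KIT ligand of marrow.

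The 5263 cKO cells and 7637 WT cells that passed filters had a median of 9710 and 9706 unique molecular identifiers (UMIs, each tagging 1 captured mRNA molecule). Mesenchymal-like cells numbered 1397 in the cKO library and 3720 in the WT library, and all 13 mesenchymal markers were higher in them than in the other cells of both libraries. These cells differed in depth, with a median of 62256 UMIs in cKO and 13753 UMIs in WT, and 1 shallow cluster of the class held 203 cKO cells and 1958 WT cells. The libraries shared 11 barcodes, 6 of them among the kept cells. Slc31a1, the targeted gene, had 14.3 UMIs per 1000000 UMIs of its class and library (CPM) in cKO mesenchymal-like cells against 42.3 CPM in WT, a ratio of 0.338 (95% interval 0.317 to 0.36), and 72.2 CPM against 69.8 CPM in macrophage or monocyte-like cells. With 1 library per genotype no test across samples exists. Every interval below covers counting error only and compares these 2 libraries, not the genotypes.

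The 250 bases before the start sites of Cxcl12 and Kitl are shown because these ligands were among the pairs of factors that varied together from cell to cell in both libraries, as described further on. The sequences are RefSeq's for GRCm38.p6, read 5′ to 3′ on the plus strand, at chr6:117168285-117168534 for Cxcl12 and chr10:100015571-100015820 for Kitl. The start sites are RefSeq's too. For Kitl, GENCODE starts the gene at 100015630, so most of that window lies inside the gene as GENCODE has it. Capitals mark GC boxes (GGGCGG on either strand) and a TATA box (TATAAA on either strand).
Cxcl12: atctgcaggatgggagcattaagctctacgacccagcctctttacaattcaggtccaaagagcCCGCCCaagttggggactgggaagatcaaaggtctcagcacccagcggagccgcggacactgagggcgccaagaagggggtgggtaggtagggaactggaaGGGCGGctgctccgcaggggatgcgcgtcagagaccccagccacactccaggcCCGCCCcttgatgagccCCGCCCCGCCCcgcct
Kitl: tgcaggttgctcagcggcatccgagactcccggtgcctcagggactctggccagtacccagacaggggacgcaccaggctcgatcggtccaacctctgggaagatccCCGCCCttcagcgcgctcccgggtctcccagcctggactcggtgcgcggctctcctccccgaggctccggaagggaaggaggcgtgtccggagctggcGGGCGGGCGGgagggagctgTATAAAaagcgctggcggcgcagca
Cxcl12 held 5 GC boxes, of which the 2 nearest the start overlap, and no TATA box, whereas Kitl held 3 GC boxes, again with an overlapping pair, and 1 TATA box. In windows from 250 bases before to 50 after the start, 35.7% of 32851 mouse promoters held a GC box and 13.6% held a TATA box. Windows were found for 6 of the 9 genes. Core motifs for EBF factors (TCCC, any 2 bases, then GGGA, in 0.904% of all promoters), NF-kB (GGG, any base, then TTTCCC, 0.527%) and C/EBP factors (TTGCGCAA, 0.183%), searched on both strands, had no match in any of them. That says only that these letters are not in these windows.

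Cxcl12 and Kitl, the retention chemokine and the stem cell factor, were both highest in endothelial-like cells and next highest in mesenchymal-like cells. Cxcl12 (ENSMUSG00000061353, chromosome 6, 117168535 to 117181367, plus strand, GRCm38) had 811 CPM in 86 cKO and 606 CPM in 123 WT endothelial-like cells, against 316 CPM and 379 CPM in mesenchymal-like cells of cKO and WT. Its levels in osteoclast-like, B cell-like and macrophage or monocyte-like cells, between 28.0 and 56.6 CPM, overlapped between libraries, and neutrophil-like cells were lowest with 7.63 CPM in cKO and 26.7 CPM in WT. Kitl (ENSMUSG00000019966, chromosome 10, 100015630 to 100100416, plus strand) stood further apart, with 486 CPM in cKO and 640.3 CPM in WT endothelial-like cells, against 33.5 CPM and 40.8 CPM in mesenchymal-like cells. Macrophage or monocyte-like cells had 9.19 CPM of Kitl in cKO and 9.46 CPM in WT, and no Kitl UMI was found in B cell-like cells. Endothelial-like cells were 1.63% of the cKO cells and 1.61% of the WT cells, yet held 31.7% and 30.9% of all Kitl UMIs of their libraries.

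**Figure D1:**
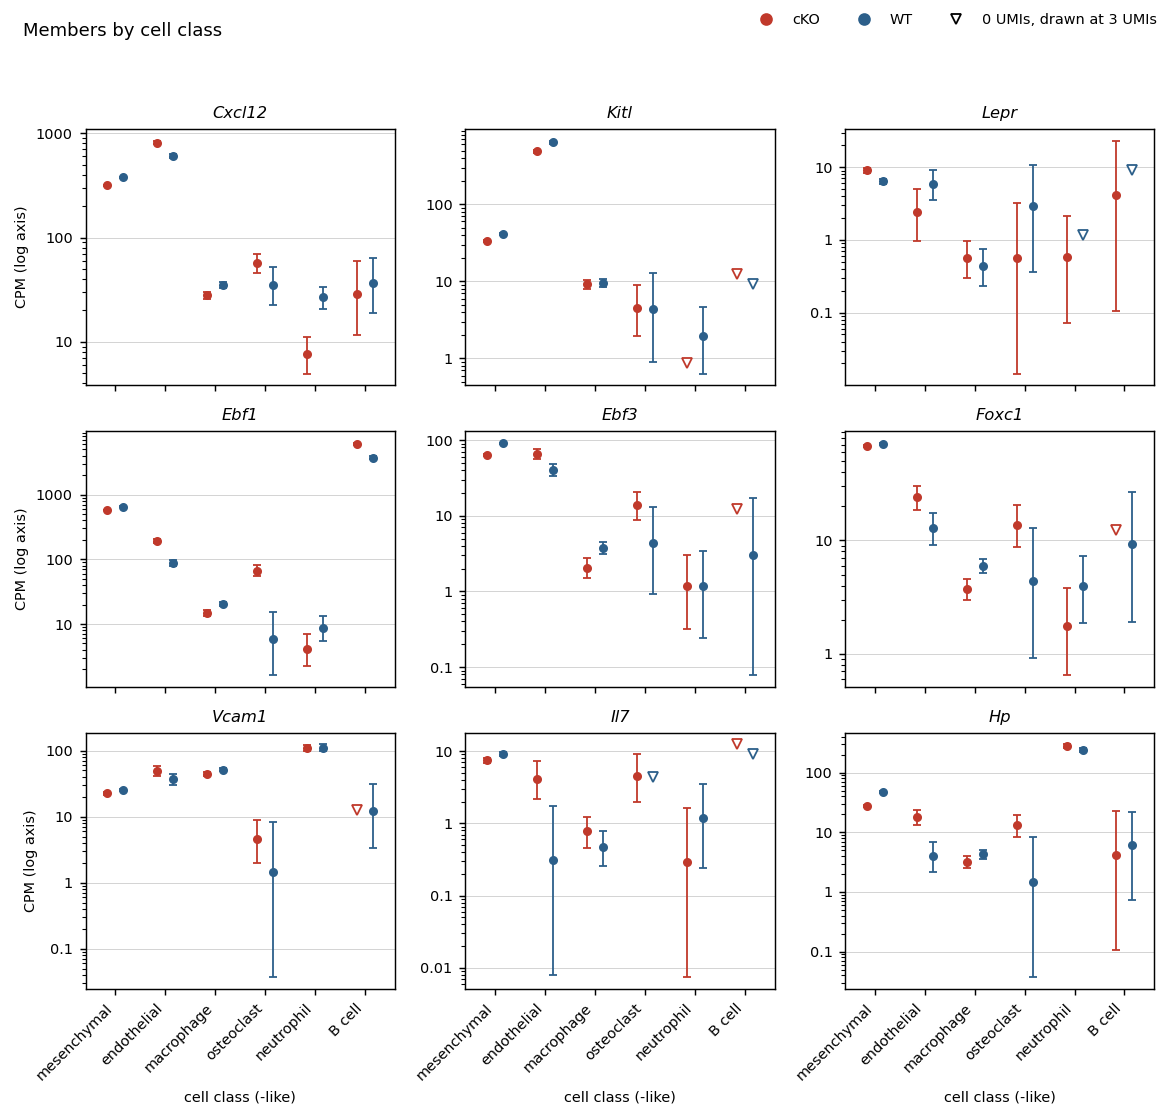
Levels of the 9 genes in CPM on a log axis, by cell class, with cKO left of WT, exact Poisson 95% intervals and, where no UMI was found, an open triangle at the level of 3 UMIs. Kitl and Cxcl12 are highest in endothelial-like cells, Ebf1 in B cell-like cells, Hp and Vcam1 in neutrophil-like cells, and Lepr, Foxc1 and Il7 in mesenchymal-like cells.

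Free RNA from lysed cells adds UMIs to droplets of every class, so the level in each class was set beside that of Col1a1, Col1a2, Col3a1, Sparc and Postn, abundant matrix genes of mesenchymal cells. Their sum in endothelial-like cells was 38.8% of its mesenchymal level in cKO and 31.6% in WT, with single genes between 15% and 101.4% in cKO and between 8.23% and 101.7% in WT. In macrophage or monocyte-like cells the sum was 6.67% and 6.95%. Kitl in endothelial-like cells lay 37.4 times above that share in cKO and 49.7 times in WT, and Cxcl12 lay 6.61 and 5.07 times above it. The level of Vcam1 in macrophage or monocyte-like cells was 29.4 times the share in cKO and 29.2 times in WT.

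Il7 (ENSMUSG00000040329, chromosome 3, 7569994 to 7613760, minus strand), the lymphoid cytokine, had 7.5 CPM in cKO and 9.08 CPM in WT mesenchymal-like cells, its highest class. Its other classes with at least 50 cells in 1 library had at most 4.57 CPM. Il7 shares its locus with Gm16685 on the other strand, and for the authors' counting the sources used here state neither strand nor introns. The same holds for Vcam1 with Gm43109, Ebf1 with Gm12158 and Ebf3 with Gm45278 and Gm10578.

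Vcam1 (ENSMUSG00000027962, chromosome 3, 116109949 to 116129688, minus strand), the adhesion molecule, had a lower level in mesenchymal-like cells than in some blood cell classes. Neutrophil-like cells had 110.9 CPM in cKO and 110.4 CPM in WT, macrophage or monocyte-like cells 43.8 and 50.9 CPM, endothelial-like cells 49.5 and 36.9 CPM, and mesenchymal-like cells 22.4 and 25.1 CPM. Within the macrophages, a cluster of 71 cKO and 70 WT cells led by Vsig4 and Cd163, made without Vcam1 among its variable genes, had 1661 CPM in cKO and 1346 CPM in WT. Mesenchymal-like cells gave 53.7% of all Vcam1 UMIs in cKO and 56.5% in WT.

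Lepr (ENSMUSG00000057722, chromosome 4, 101717404 to 101815352, plus strand), the leptin receptor that marks the niche cell of adult marrow, was sparse. It had 9.05 CPM in cKO and 6.42 CPM in WT mesenchymal-like cells, which is 748 and 664 UMIs. Endothelial-like cells followed with 2.42 CPM in cKO and 5.94 CPM in WT. After each cell was thinned to 5000 UMIs, 3.92% of cKO and 3.32% of WT mesenchymal-like cells held a Lepr UMI, against 0% of neutrophil-like cells, with exact upper bounds of 1.29% in cKO and 1.63% in WT. Without thinning, 23.8% of cKO and 12.0% of WT mesenchymal-like cells held one.

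The 3 transcription factors had different spreads. Ebf1 (ENSMUSG00000057098, chromosome 11, 44617317 to 45008091, plus strand), which is also a founding factor of the B lineage, had 6049 CPM in 57 cKO and 3732 CPM in 46 WT B cell-like cells, against 577 CPM and 654 CPM in mesenchymal-like cells. Ebf3 (ENSMUSG00000010476, chromosome 7, 137193673 to 137314445, minus strand), its stromal relative, had 63.8 CPM in cKO and 90.9 CPM in WT mesenchymal-like cells, and the endothelial-like level of 65.1 and 40 CPM overlapped with it. Foxc1 (ENSMUSG00000050295, chromosome 13, 31806633 to 31812476, plus strand), a forkhead factor of reticular cells, had 67.8 and 71.3 CPM in mesenchymal-like cells, against 23.9 and 12.8 CPM in endothelial-like cells.

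Hp (ENSMUSG00000031722, chromosome 8, 109575128 to 109579172, minus strand) encodes haptoglobin, a haemoglobin-binding plasma protein that neutrophil precursors also store and that reticular stroma is known to express. Neutrophil-like cells had 280.2 CPM in cKO and 244 CPM in WT, and mesenchymal-like cells 27.4 and 47.5 CPM. The other classes with at least 50 cells in 1 library had between 1.47 and 18.0 CPM. Mesenchymal-like cells gave 63.2% of all Hp UMIs in the cKO library and 84.3% in the WT library, and neutrophil-like cells 26.6% and 10.7%.

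**Figure D2:**
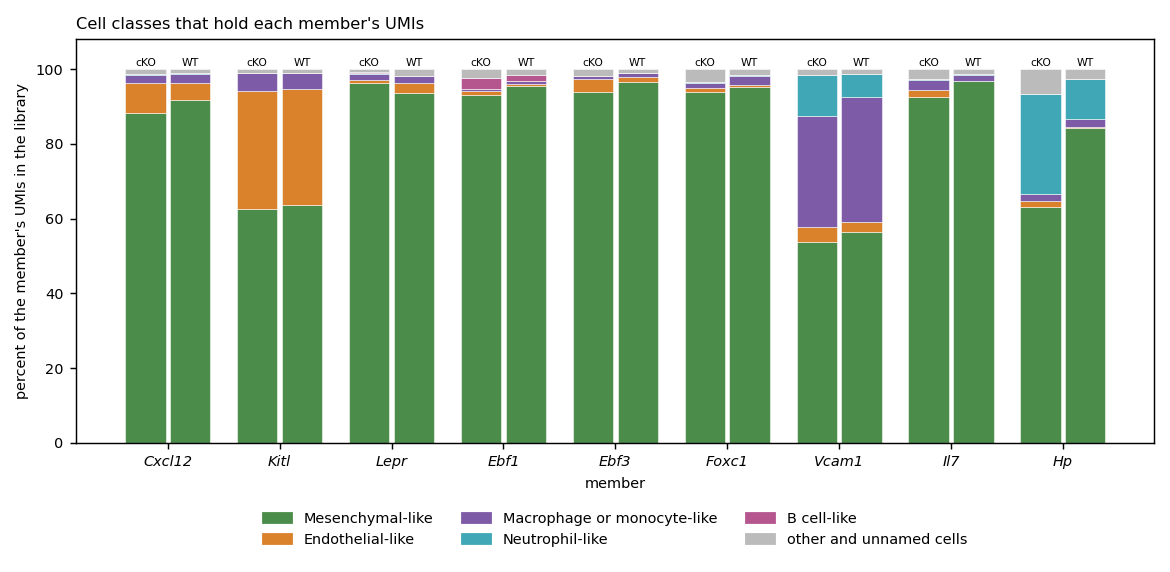
Share of each gene's UMIs, in percent of the library's total for that gene, that came from each cell class, with the cKO bar beside the WT bar. Endothelial-like cells give 31.7% of Kitl UMIs in cKO and 30.9% in WT, and myeloid classes give much of Vcam1 and Hp.

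In mesenchymal-like cells, the factors were set side by side between genotypes. Of the 9 genes, 7 reached 10 CPM in either library, which leaves out Lepr and Il7, and all 7 had a lower level in the cKO library. Of these 7, 1 (Hp) lay past 1.5-fold lower, where 1.15% of 8941 genes did, and 0 lay past 1.5-fold higher, where 0.615% did. A ratio below 1 was also found for 58.7% of the 8941 genes. The median log2 ratio over the 7 genes was -0.26, and over all genes it was -0.03.

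Of the secreted factors, Cxcl12 had 26155 UMIs or 316 CPM in cKO and 39139 UMIs or 379 CPM in WT, a ratio of 0.835 (0.822 to 0.849). Kitl had 33.5 CPM in cKO and 40.8 CPM in WT, a ratio of 0.821 (0.782 to 0.861). Il7, at 620 UMIs in cKO and 939 UMIs in WT, had a ratio of 0.825 (0.745 to 0.915). All 3 were thus lower in the cKO library by a similar factor, with intervals that overlap.

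Vcam1 had a ratio of 0.892 (0.84 to 0.947) from 1851 UMIs in cKO and 2594 UMIs in WT. Macrophage markers had 203 CPM in cKO and 403 CPM in WT within mesenchymal-like cells, with none of the 12 at 0, which is 1.92% and 3.56% of their level in macrophage or monocyte-like cells. Vcam1 at that share would be 0.841 CPM in cKO and 1.81 CPM in WT, and taking it away gave a ratio of 0.926. Lepr was the exception in direction, with a ratio of 1.41 (1.27 to 1.57).

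Among the transcription factors Ebf3 differed most, with 5272 UMIs in cKO and 9394 UMIs in WT and a ratio of 0.702 (0.678 to 0.726). Ebf1 had a ratio of 0.882 (0.872 to 0.892) and Foxc1 of 0.951 (0.918 to 0.984). The interval of Ebf3 lay below those of both others.

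Hp had 2267 UMIs in cKO and 4905 UMIs in WT, a ratio of 0.578 (0.55 to 0.607), the lowest of the 9. Neutrophil markers had 194 CPM in cKO and 556 CPM in WT within mesenchymal-like cells, with none of the 11 at 0, which is 0.0903% and 0.272% of their level in neutrophil-like cells. Hp at that share would be 0.253 CPM in cKO and 0.664 CPM in WT. Taking it away gave a ratio of 0.581.

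**Figure D3:**
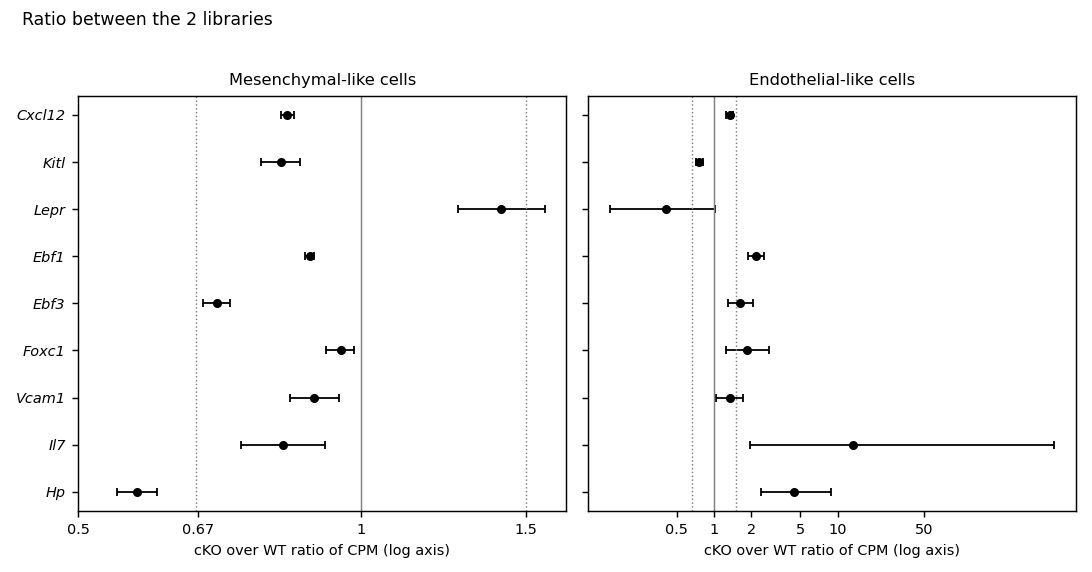
Ratio of the cKO level to the WT level for each of the 9 genes on log axes, in mesenchymal-like cells (left) and endothelial-like cells (right, on a wider axis), with exact conditional binomial 95% intervals and dotted lines at 1.5-fold. In mesenchymal-like cells Hp is lowest at 0.578, Ebf3 next at 0.702 and Lepr above 1 at 1.41, and in endothelial-like cells Ebf1, Ebf3, Foxc1, Il7 and Hp lie past 1.5.

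Because the WT library holds many shallow mesenchymal-like cells, levels were also taken in bins of UMIs per cell. The bins held 147 cKO and 975 WT cells at 1000 to 5000 UMIs, 131 and 1072 cells at 5000 to 20000, 200 and 777 cells at 20000 to 50000, and 919 and 896 cells over 50000. The ratio of Cxcl12 was 1.11 (0.948 to 1.3), 1.07 (0.98 to 1.17), 1.26 (1.22 to 1.31) and 0.835 (0.819 to 0.851) in these 4 bins. The summed level of Cxcl12 was thus higher in cKO at 20000 to 50000 UMIs, with 558 CPM against 442 CPM in WT. Over 50000 UMIs it was lower in cKO, with 288 CPM against 345 CPM in WT. The share of cells with Cxcl12 was not higher in cKO at 20000 to 50000 UMIs. After thinning to 5000 UMIs it was 64.5% in cKO and 69% in WT. At 1000 to 5000 UMIs, where all 9 factors reached 10 CPM, 3 (Kitl, Lepr and Il7) lay past 1.5-fold higher in cKO, where 16.7% of genes did, and 1 (Vcam1) lower, where 11.2% did. At 5000 to 20000 UMIs, 0 of 8 lay past 1.5-fold higher, where 4.87% of genes did, and 0 lower, where 8.07% did. Of the 7 factors with at least 10 CPM, 0 lay past 1.5-fold lower at 20000 to 50000 UMIs, where 0.732% of genes did, and 0 past 1.5-fold higher, where 1.15% did. Over 50000 UMIs, 1 (Hp) lay past 1.5-fold lower, where 0.519% of genes did, and 0 higher, where 0.677% did. The direction of Cxcl12 in the summed class is that of the deepest bin. The part of depth in it was not tested.

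Hp was lower in cKO in both bins above 20000 UMIs, and Ebf3 in the deepest. Hp had 55.7 CPM in cKO and 64.3 CPM in WT at 20000 to 50000 UMIs, a ratio of 0.866, and 24.3 and 42.8 CPM over 50000 UMIs, a ratio of 0.568. Ebf3 had ratios of 0.95 (0.875 to 1.03) and 0.709 (0.681 to 0.738) in the same bins. Below 20000 UMIs, Hp had ratios of 0.829 and 1.1, with intervals that span 1, and Ebf3 of 1.19 (0.863 to 1.61) and 0.751 (0.609 to 0.919). Lepr was above 1 in all 4 bins, with ratios of 2.68, 1.46, 1.13 and 1.47, of which only the last, over 50000 UMIs, has an interval off 1 (1.3 to 1.68). Kitl had ratios of 1.56 and 1.27 in the 2 shallow bins and 0.871 and 0.89 in the 2 deep bins. Il7 had 25.9 CPM in cKO and 8.06 CPM in WT in the shallowest bin, a ratio of 3.22 (1.38 to 6.93) that rests on 10 and 25 UMIs, and ratios of 1.46, 0.71 and 0.801 in the deeper bins.

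**Figure D4:**
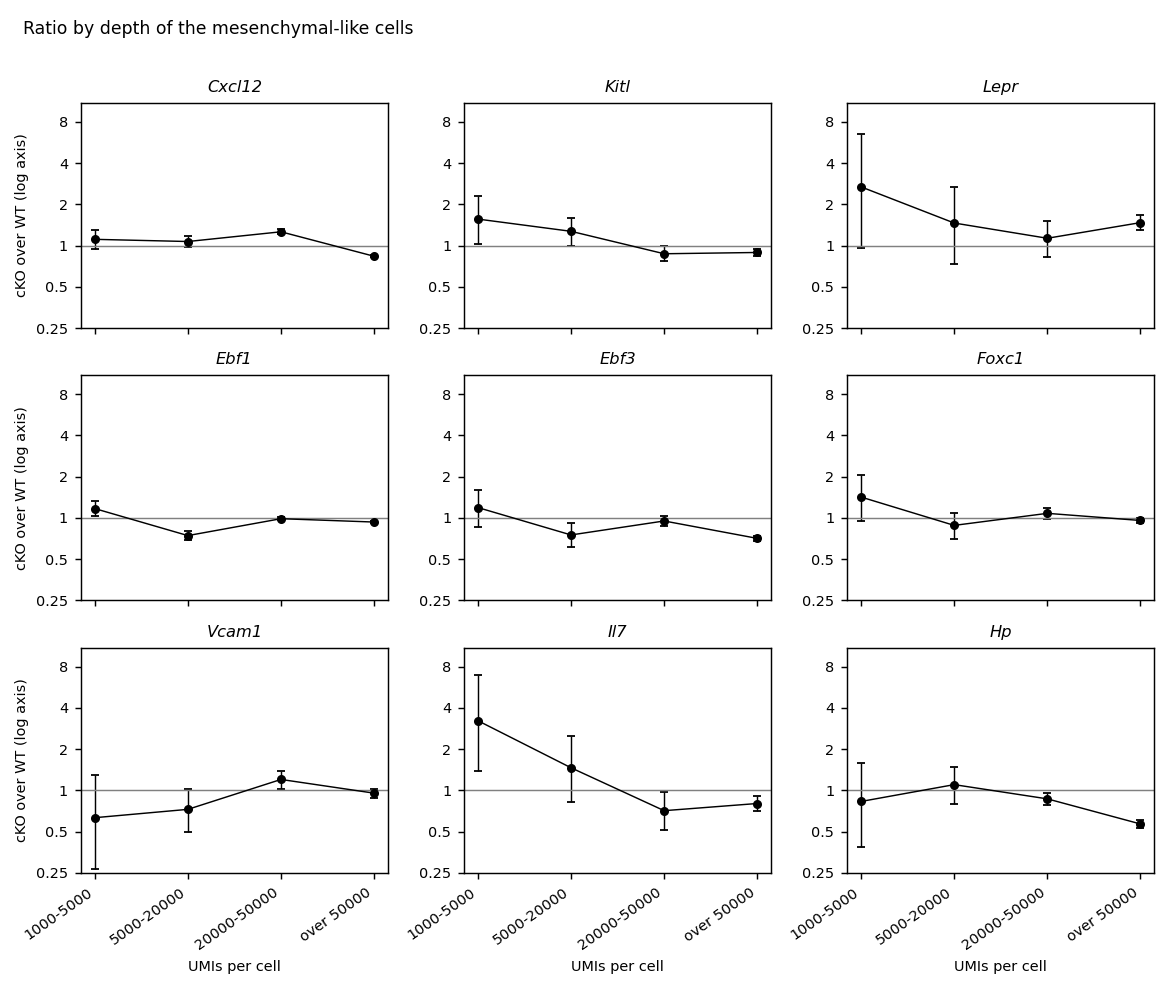
Ratio of the cKO level to the WT level on a log axis for each gene, in 4 bins of UMIs per mesenchymal-like cell from shallow to deep, with counting intervals. Cxcl12 is above 1 at 20000 to 50000 UMIs and below 1 over 50000 UMIs, Hp is below 1 in both, and the interval of Ebf3 spans 1 at 20000 to 50000 UMIs.

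To compare cells by state, the 1119 cKO and 1673 WT mesenchymal-like cells of at least 20000 UMIs were clustered again without the 9 genes. Over all these cells 1 factor (Hp, at 0.548) lay past 1.5-fold lower, where 0.653% of genes did, and 0 higher, where 0.687% did. The clustering gave 5 states, a choice made after the data were seen. Cells of 1 state were not alike in depth. In all 5 the cKO cells were deeper, with medians from 46405 to 74615 UMIs against 33326.5 to 61633 UMIs in WT. The part of depth in the ratios by state was not tested. State 0, led by Aspn, Cxcl14 and Ogn besides Hp itself, held 426 cKO and 693 WT cells. State 1, pre-osteoblast-like by its markers, held 275 and 312 cells. States 2 (histone genes, 204 and 284 cells) and 3 (cycling-like, 161 and 228 cells) are named by their leading genes and markers, and state 4, which held 53 and 156 cells, was led by the neutrophil genes Ngp, Mpo and Elane.

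All of the factors but Lepr were lowest in the pre-osteoblast-like state in both libraries, although in WT the intervals of Il7 and Vcam1 overlap with other states. Cxcl12 had 168 CPM in cKO and 202 CPM in WT there, against 420.2 CPM and 461 CPM in state 0. Ebf1 had 368 and 439 CPM there, against 705 and 729 CPM in state 0. Ebf3 had 26.7 CPM in cKO and 40.6 CPM in WT in the pre-osteoblast-like state and between 68.8 and 102.6 CPM in the other 4. Hp had 5.21 and 18.5 CPM there, against 40.8 and 67.2 CPM in state 0. Foxc1 showed the same order more weakly, with 46.8 and 47.2 CPM in the pre-osteoblast-like state and 85.2 and 89.1 CPM in the cycling-like state. For Hp in WT this order depended on the clustering. With cells of every depth clustered, WT Hp had 31.2 CPM in the pre-osteoblast-like state. It had 24.9 and 25.5 CPM in shallow states of 1079 and 899 WT cells. In cKO it had 6.29 CPM in the pre-osteoblast-like state and 16.4 and 15.3 CPM in the same shallow states.

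Lepr ran the other way from the other factors in the 5 states of deep cells. It was highest in the pre-osteoblast-like state, at 16 CPM in cKO and 11.3 CPM in WT, and had between 3.86 and 9.65 CPM in the other 4 states of both libraries. Its ratio in the pre-osteoblast-like state was 1.41 (1.18 to 1.69). Its ratio was above 1 in all 5 states, from 1.05 in the cycling-like state to 1.79 in state 2, and the intervals of states 0, 3 and 4 span 1. This direction depended on the clustering. When mesenchymal-like cells of every depth were clustered, the pre-osteoblast-like state held 110 cKO and 182 WT cells and had 14 CPM of Lepr in cKO and 15.4 CPM in WT, a ratio of 0.912 (0.703 to 1.18). Of the other 4 states there with at least 50 cells of each library, 1 shallow state was also below 1, at 0.784 (0.196 to 2.31), and the others had ratios of 1.82, 1.67 and 1.24.

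Ebf3 and Hp were lower in the cKO library in all 5 states. The ratio of Ebf3 was 0.774 in state 0, 0.658 in the pre-osteoblast-like state, 0.766 in state 2, 0.724 in the cycling-like state and 0.67 in state 4. The ratio of Hp was 0.607, 0.282, 0.747, 0.455 and 0.62 in the same states, and in the pre-osteoblast-like state its interval was 0.225 to 0.351. In the clustering of cells of every depth, the pre-osteoblast-like state had ratios of 0.603 (0.499 to 0.727) for Ebf3 and 0.201 (0.145 to 0.275) for Hp. Cxcl12 and Ebf1 were below 1 in all 5 as well, Cxcl12 between 0.725 and 0.948 and Ebf1 between 0.837 and 0.967. With cells of every depth clustered, Cxcl12 was higher in cKO in a shallow state, at 480 CPM against 352 CPM in WT. It was lower in cKO in the other states with at least 50 cells of each library.

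Kitl differed between states. It had 30.8 CPM in cKO and 41.9 CPM in WT in state 0, a ratio of 0.734, and 17.5 and 26.5 CPM in the pre-osteoblast-like state, a ratio of 0.66. In state 2 it had 46.4 CPM in cKO and 38.8 CPM in WT, a ratio of 1.2. Vcam1 had 22.1 CPM in both libraries in state 0, 14.1 and 18.8 CPM in the pre-osteoblast-like state, and 43.4 and 33.9 CPM in the state led by neutrophil genes. The difference of these ratios between states was not tested.

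**Figure D5:**
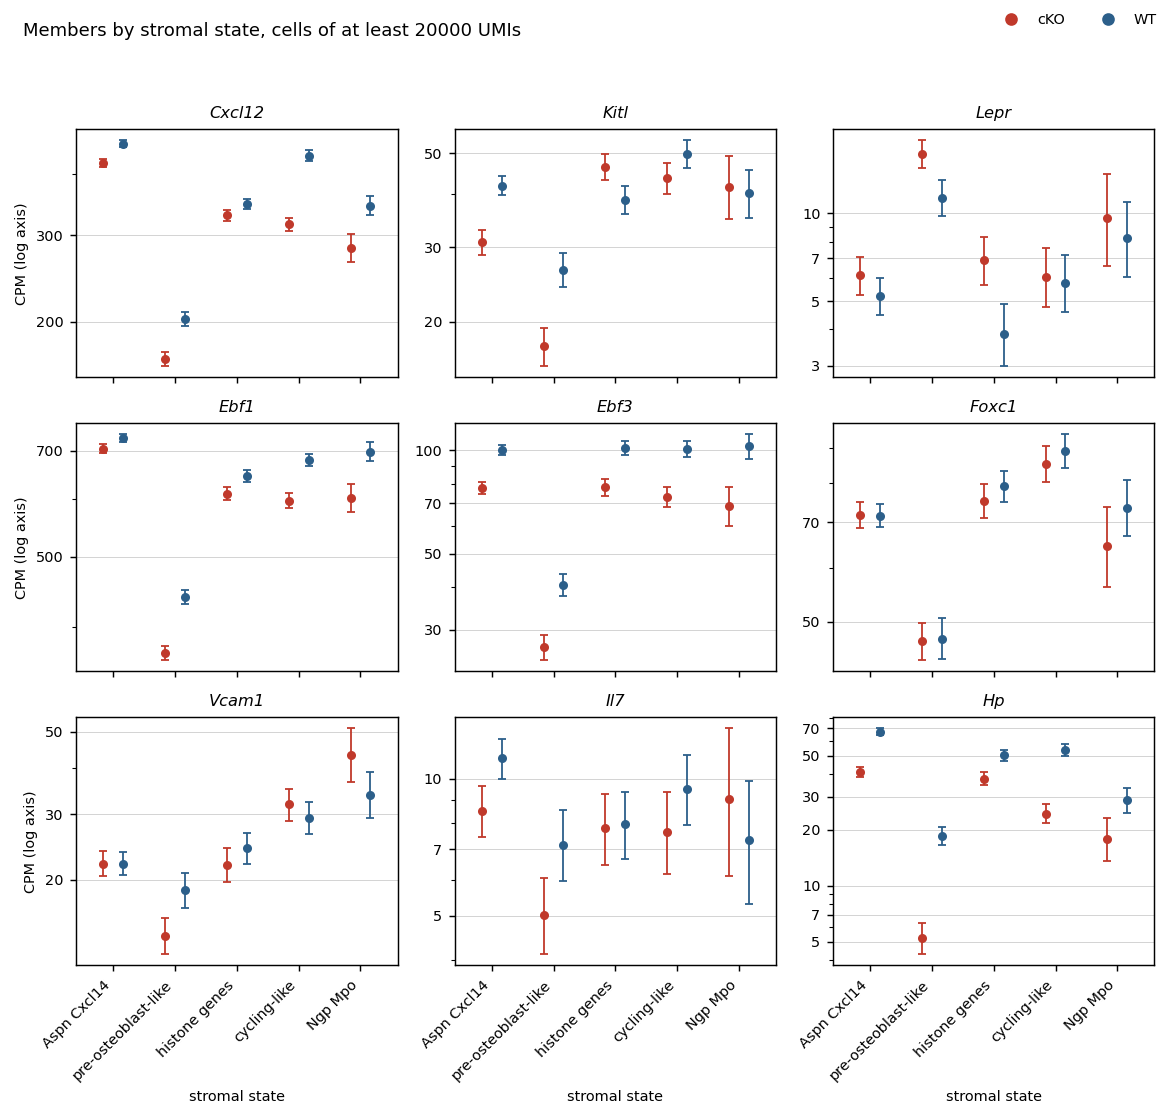
Levels of the 9 genes in CPM in the 5 states of mesenchymal-like cells with at least 20000 UMIs, with cKO left of WT and exact Poisson 95% intervals. Cxcl12, Ebf3 and Hp are lowest in the pre-osteoblast-like state, where Lepr is highest, and Ebf3 and Hp are lower in cKO in all 5 states.

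The factors were spread unevenly over cells. With each of the deep cells thinned to 20000 UMIs, Cxcl12 averaged 6.93 ± 11.6 UMIs per cell in cKO and 7.84 ± 10.2 in WT (SD over 1119 and 1673 cells). The 112 cKO cells and 167 WT cells with the most of it held 44.1% and 41.5% of its UMIs, and 12.2% and 8.67% of cells had none. Hp was more uneven, with 74.3% of cKO and 65.4% of WT cells at 0 and 72.1% and 67.8% of its UMIs in as many cells with the most of it. Lepr had no UMI in 88.7% of cKO and 89.2% of WT cells at that depth. Ebf1 was nearly general, absent from 1.79% of cKO and 0.359% of WT cells. The median cell had UMIs of 4 of the 9 genes in cKO and 5 in WT, and 2 cells in each library had all 9.

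Shares of cells with a UMI in the whole class depend on depth, so they were taken after thinning to 5000 UMIs. Cxcl12 was then found in 60.2% of cKO and 69.3% of WT mesenchymal-like cells, against 4.91% and 12.9% of neutrophil-like cells, a class with a median depth of 8948 UMIs in cKO and 6857 UMIs in WT. Without thinning, the shares in mesenchymal-like cells were 91.6% in cKO and 87.4% in WT, the other order. The thinned cells still differ in original depth, with 131 cKO and 1072 WT cells from 5000 to 20000 UMIs. Thinned shares of Cxcl12 were 65.6% in cKO and 77.7% in WT in that bin. They were 64.5% and 69% at 20000 to 50000 UMIs, and 58.5% and 59.5% over 50000 UMIs. Ebf3 was found in 26.4% and 33.9% of thinned mesenchymal-like cells, against 0.702% and 1.34% of neutrophil-like cells.

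Across deep cells, some of the factors varied together. Pearson's r of log counts between Cxcl12 and Kitl was 0.35 over the 1119 cKO cells and 0.39 over the 1673 WT cells, between Cxcl12 and Hp 0.39 and 0.36, between Kitl and Hp 0.24 and 0.36, and between Ebf1 and Ebf3 0.37 and 0.32. Ebf3 had an r of 0.39 in cKO and 0.27 in WT with Pparg, the fat cell regulator, and Cxcl12 had 0.33 and 0.31. Lepr had r between -0.15 and 0.04 against the other 8. Values for Vcam1 were also low, between 0.04 and 0.14 in cKO and between -0.01 and 0.09 in WT, and so were those for Il7, between -0.04 and 0.2 and between -0.01 and 0.1. Cells of 1 library share their capture and differ in depth, so these values describe the libraries.

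Endothelial-like cells, which Prrx1-Cre is not known to mark, had ratios on the other side of 1 from mesenchymal-like cells for most of the factors, though not for Kitl, and the difference between the classes was not tested. All 12 endothelial markers were higher in them than in other cells, and their median depth was 26078 UMIs in cKO and 26243 UMIs in WT. Of 7 factors with at least 10 CPM, 4 lay past 1.5-fold higher in cKO, where 7.1% of 9321 genes did, and 0 lay past 1.5-fold lower, where 5.41% did. Cxcl12 had a ratio of 1.34 (1.26 to 1.42), Kitl of 0.759 (0.709 to 0.813) and Vcam1 of 1.34 (1.04 to 1.73). The 4 past the fold were Ebf1 at 2.18 (1.89 to 2.53), Ebf3 at 1.63 (1.29 to 2.05), Foxc1 at 1.86 (69 UMIs in cKO and 41 in WT) and Hp at 4.43 (2.38 to 8.87).

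Some of these endothelial-like values rested on few cells. Hp had 52 UMIs in cKO and 13 in WT, and 5 cells held 92.3% and 69.2% of them. For Ebf1, 5 cells held 56.1% of the UMIs in cKO and 24.2% in WT. Prrx1 itself had 253 UMIs or 87.6 CPM in cKO and 77 UMIs or 24.1 CPM in WT endothelial-like cells. That is a ratio of 3.64 (2.81 to 4.76), though fewer cKO than WT cells held a Prrx1 UMI. After the 28 cKO and 45 WT cells with a Prrx1 UMI were left out, a step added after the data were seen, Col1a1 was at 212 CPM in cKO and 306 CPM in WT, against 924 CPM and 573 CPM before. Ebf1 then had a ratio of 0.842 (0.656 to 1.08), Hp had 1 UMI in each library, and 2 of 6 factors lay past 1.5-fold higher, where 6.97% of 9126 genes did, and 0 lower, where 6.75% did. Cxcl12 had a ratio of 1.62 (1.49 to 1.76), Ebf3 of 1.59 (1.15 to 2.21) and Kitl of 0.887 (0.816 to 0.963) in these cells.

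Some receptors of these factors were mainly outside the stroma. Cxcr4, the receptor of CXCL12, had 151 CPM in cKO and 125 CPM in WT neutrophil-like cells, against 2.36 and 3.98 CPM in mesenchymal-like cells. Kit had 85.6 CPM in cKO and 92.9 CPM in WT endothelial-like cells, 72.8 and 77.4 CPM in neutrophil-like cells, and 106 CPM (23 UMIs) and 62.4 CPM (15 UMIs) in 38 cKO and 47 WT T or NK cell-like cells. Ackr3, an atypical receptor of CXCL12, had 19.1 CPM in cKO and 30.7 CPM in WT endothelial-like cells and 4.64 and 4.33 CPM in mesenchymal-like cells. Il7r had 309 CPM in cKO and 399.7 CPM in WT T or NK cell-like cells. Itga4, a subunit of the integrin that binds VCAM1, had 337 and 212 CPM in T or NK cell-like cells, 282 and 307 CPM in B cell-like cells and 107 and 119 CPM in macrophage or monocyte-like cells. Its partner Itgb1 was general, with 905 CPM in cKO and 884 CPM in WT mesenchymal-like cells and 1069 and 1261 CPM in endothelial-like cells. Lep, the ligand of the leptin receptor, had no UMI in either library, a count that allows up to 3 UMIs per library.

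Lists around the factors were counted in the same way in mesenchymal-like cells. For comparison, 0.615% of all 8941 genes were past 1.5-fold higher in cKO there and 1.15% past it lower. The log2 ratio of the middle gene among them was -0.03. At such shares, finding none past the fold in a list of a few genes says little about that list. Of 15 receptors and partners 5 reached 10 CPM, none past 1.5-fold, with a median log2 ratio of -0.15. Zfp521, a zinc finger partner of EBF1, had a ratio of 0.783, Itga9 of 0.785 and Leprot of 0.902. Of 8 proteases that cut the factors 4 reached 10 CPM, none past 1.5-fold, with a median of 0.02, and Mmp2 was highest at 1.21. Of 8 genes of leptin receptor and STAT3 signalling 7 reached it, none past 1.5-fold, with a median of -0.08, among them Jak2 at 0.789 and Socs3 at 1.14.

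Other niche signals lay on both sides of 1. Of 31 listed, 18 reached 10 CPM, 3 lay past 1.5-fold higher in cKO, where 0.615% of all 8941 genes did, and 3 past 1.5-fold lower, where 1.15% did, and their median was 0.16 on the log2 scale. Il11, a cytokine of the IL-6 family, had 18.4 CPM in cKO and 4.58 CPM in WT, a ratio of 4.02. Ptn, the growth factor pleiotrophin, had 31.0 and 16.5 CPM, a ratio of 1.88, and Cxcl14 had a ratio of 1.58. Bmp4 had 10.7 CPM in cKO and 22.1 CPM in WT, a ratio of 0.485, Bmp6 5.37 and 10.5 CPM, a ratio of 0.509, and Igf1 10.7 and 21.4 CPM, a ratio of 0.498. Igf1 is also made by macrophages, whose markers were lower in cKO mesenchymal-like cells as given above, and in cells of at least 20000 UMIs its ratio was 0.697. The part of macrophage RNA in it was not tested further.

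Of 33 other reticular stromal genes 30 reached 10 CPM, with a median of -0.11. Past 1.5-fold, 1 lay higher, where 0.615% of all 8941 genes did, and 2 lower, where 1.15% did. Serping1, a complement inhibitor, had 22.2 CPM in cKO and 50.5 CPM in WT, a ratio of 0.439. Prrx1, whose promoter drives the Cre, had a ratio of 0.983. Of 12 listed NF-kB and inflammatory genes, chemokines and Icam1 among them, 9 reached 10 CPM, with a median of 0.03. Past 1.5-fold, 1 lay higher (the chemokine Ccl7, at 1.52) and none lower, beside the same shares of all genes.

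Over 17 sums of at least 50 cells, 10 of them a named class in 1 library and 7 an unnamed cluster in 1 library, the genes whose log2 levels were most like each factor were taken by Pearson's r among 6913 genes. Cxcl12 was most like Igfbp7, with an r of 0.989, then Ccn2 and Wwtr1. Kitl was most like Nid2, with 0.981, then Col18a1 and Arhgef28, and Vcam1 most like Stil, with 0.949, then E2f7 and Cit. Ebf3 was most like Fbxl7, at 0.977, Foxc1 like Nsg1, at 0.981, and Ebf1 like Scd1, at 0.958. Hp was most like Gria3, at 0.937, Il7 like Fkbp11, at 0.915, and Lepr like Tsc22d2, at 0.911. Lepr and Il7 were near the floor in several of these sums. Neither had a UMI in an unnamed cluster of 152 cKO and 69 WT cells. In an unnamed cluster of 114 cKO and 107 WT cells, Lepr had 0 and 1 UMIs and Il7 2 in each library. Their r values, each the highest among 6913 genes, rest partly on such sums. The sums of 1 library share its capture, so all r values here are a description with no test.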

How the data were processed

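Raw UMI counts per gene and barcode were deposited by the authors for 1 cKO and 1 WT library, and per the file headers Cell Ranger 7.1.0 wrote the matrices. The submitters' processing notes name mm10 (GRCm38) as the build and also list Seurat. The sources used here state neither strand nor introns for the counting. Of 32285 gene identifiers, 32235 were found in GENCODE M21, which gave the coordinates.

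The cKO library had 6140 barcodes and 126031142 UMIs, and the WT library 9125 barcodes and 152398639 UMIs. Cells with at least 500 genes, 1000 UMIs and at most 15% mitochondrial UMIs were kept. Scrublet's automatic threshold marked 2 cells per library and had not worked, so the cells with the highest scores (0.8% per 1000 cells, 243 in cKO and 534 in WT) were removed. Cells were clustered together without the 9 genes among 2000 variable genes (30 components, 15 neighbours, Leiden resolution 0.5, scanpy 1.11.5, leidenalg 0.10.2), with no batch correction. A cluster took the class with the highest mean marker level if at least 3 of its markers were 2-fold above the mean of the clusters (1.5-fold for stromal states). It stayed unnamed where another class had more markers past that fold or among the 10 leading genes, and where a shallow cluster, or any stromal state, had none of its markers among those 10. Classes were rebuilt, since the authors' annotation was not used here, and may differ from the study's.

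UMIs were summed per class and library and scaled to CPM. Levels have exact Poisson intervals, shares exact Clopper-Pearson intervals and ratios (cKO over WT) exact conditional binomial intervals, all at 95%. Log2 ratios used a prior of 1 CPM. The ratio step was tested on simulated data. No replicates exist, so no p-value is given.

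The 9 genes and the 6 lists around them (receptors and partners, proteases, other niche signals, reticular stromal genes, leptin receptor and STAT3 response, NF-kB and inflammatory genes) were chosen with earlier results of these data known. Named genes were the 9, the 3 most alike in level for each of them, Slc31a1 and Prrx1, up to 4 per list with the largest log2 ratio, and receptors in a class where they are high. Some genes that the rule picked are left out. The receptors' further classes and the genes of unnamed clusters were named after their values were seen. Alternatives covered cell filters, doublets, resolution, variable genes, class definition, depth, weight per cell, scaling (TMM of edgeR 4.0.16 among them), the 10 CPM filter, the prior and the fold.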

Additional observations from a re-analysis of the deposited data

Results flagged for a closer look

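There were 7 genes with a ratio of cKO to WT on one side of 1 in endothelial-like cells and on the other side in mesenchymal-like cells, with counting intervals off 1 in both. The difference between the classes was not tested, since each genotype has 1 library. Cxcl12 had a ratio of 1.34 in endothelial-like cells against 0.835 in mesenchymal-like cells. Ebf1 had 2.18 against 0.882, Ebf3 had 1.63 against 0.702, and Foxc1 had 1.86 against 0.951. Vcam1 had 1.34 against 0.892. Il7 had 13.3 against 0.825, from 12 UMIs in cKO and 1 UMI in WT endothelial-like cells, with an interval of 1.97 to 568. Hp had 4.43 against 0.578. Without endothelial-like cells that held a Prrx1 UMI, Ebf1 had 0.842 (0.656 to 1.08), Il7 had 3 UMIs in cKO and 0 in WT, Hp had 1 UMI in each library, and Cxcl12, Ebf3 and Vcam1 had 1.62, 1.59 and 1.45. Foxc1 had 1.44 in these cells, with an interval of 0.804 to 2.59 that spans 1. The ratio of Vcam1 rested on few of these cells, since 5 cells held 58.1% of its UMIs in cKO and 72.6% in WT.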

How the results depend on the processing

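With 1 library per genotype no replicate could be left out. No paired analysis was possible because the groups share no second replicate. The median log2 ratio of the factors in mesenchymal-like cells was -0.26 and lay between -0.39 and -0.02 in 17 alternatives, always below 0. It moved by more than the counting error of Cxcl12, the gene at the median, in 6 of them. The values were -0.39 with cells thinned to 5000 UMIs, -0.15 with equal weight per cell, -0.23 with median-of-ratios scaling and -0.23 with TMM. As alternatives added after the data were seen, cells of 20000 to 50000 UMIs gave -0.02 and cells over 50000 gave -0.16. The count past 1.5-fold lower was 1 and became 0 with equal weight per cell (2.89% of all genes), 0 in cells of 20000 to 50000 UMIs (0.732%) and 2 when a ratio of 4 to 5 or lower was counted (4.05%), and the count higher was 0 and became 1 (Lepr) with equal weight per cell (0.847%). The count of endothelial-like ratios past 1.5-fold higher was 4 and became 2 without cells with a Prrx1 UMI, where Ebf1 reversed to 0.842. In mesenchymal-like cells Foxc1 reversed to 1.02 and Il7 to 1.19 with equal weight per cell, and Cxcl12 reversed to 1.26, Vcam1 to 1.2 and Foxc1 to 1.08 in cells of 20000 to 50000 UMIs. The cause was not tested. Over 15 alternatives Hp kept a ratio of 0.541 to 0.866, Ebf3 of 0.695 to 0.95, Ebf1 of 0.876 to 0.987, Kitl of 0.73 to 0.901 and Lepr of 1.13 to 1.59, none of them crossing 1. The bins below 20000 UMIs were not among these alternatives, and Kitl was higher in cKO in both. At 1000 to 5000 UMIs so were Ebf1 (752 CPM against 642 CPM in WT) and Ebf3 (127 against 107 CPM). At 5000 to 20000 UMIs so was Hp (35.1 against 32 CPM). Ebf1, Ebf3 and Hp were each lower in cKO in the other of these bins. Lepr, Il7 and endothelial-like Hp are limited by few UMIs, and genotype, mouse, culture and capture cannot be told apart.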

Other observations

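A small cluster of 20 cKO and 10 WT cells led by Rgs5 and Myh11, genes of mural cells, was left unnamed. Ebf1 had 1371 CPM in cKO and 1601 CPM in WT there, and Foxc1 143 and 135 CPM. Cxcl12 had 98.2 CPM there in cKO and 73.3 CPM in WT, from 64 and 25 UMIs. An unnamed cluster of 114 cKO and 107 WT cells led by Prss34 and Cpa3, genes of basophils and mast cells, had 118 CPM of Hp in cKO and 78.7 CPM in WT, from 202 and 103 UMIs. Another unnamed cluster, with 6 cKO and 111 WT cells led by immunoglobulin genes, had 329 CPM of Cxcl12 in WT and no Cxcl12 UMI in its cKO cells. The summed mesenchymal matrix genes were at 365 CPM in those cKO cells and 15128 CPM in the WT cells, so the cells of the libraries are not alike there and their levels are not compared.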
